A study of Mus musculus with 7 samples.

Results

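The 10 genes described here act in meiotic recombination, in the formation of DNA breaks and their processing into crossovers. They are Spo11, Mei1, Ankrd31, Dmc1, Meiob, Rad51ap2, Hfm1, Msh4, Msh5 and Mlh3, chosen by name from the 31053 genes counted, and each matched 1 entry. Single-cell RNA was measured in 7 libraries of dissociated gonads from untreated wild-type C57BL/6J mice, 5 before birth (embryonic days E11.5, E12.5 and E14.5, then E16.5 and E18.5) and 2 after it (P1 and P5, in days from birth), 1 library per age. The youngest library is labelled gonad, with no sex given, and the other 6 ovary. Each library came from pooled gonads, so no age has a replicate and no difference between ages or cell groups could be tested. Cells with at least 200 detected genes were kept, and germ cells were taken as those with 3 or more unique molecular identifiers (UMIs, each counting 1 captured mRNA molecule) of Dazl and Ddx4 together. This gave 4760 germ cells among 50823 cells, 9, 321, 2669, 1016, 439, 244 and 62 in the order of the ages.

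In fetal oocytes, recombination starts when the SPO11 complex cuts both DNA strands on chromosomes that are being aligned. The broken ends are trimmed to single strands and loaded with strand-exchange proteins, among them the recombinase DMC1, which searches for the matching sequence on the homologous chromosome. Some of the joined intermediates are stabilised by the MSH4-MSH5 complex and then cut to give crossovers, which hold homologous chromosomes together while the oocyte is arrested.

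A level is the number of a gene's UMIs in a group of cells per 1000000 UMIs of those cells (CPM). Levels are given with exact 95% Poisson intervals, and ratios of 2 levels with exact intervals that condition on the UMIs of both groups. Shares of cells have exact binomial intervals. All of these cover counting error only, and because the reads come from transcript ends, levels were compared within a gene and not between genes. Germ cell depth was 5508087 to 36424796 UMIs per library from E12.5 to P1 and 3440769 at P5, but only 224654 in the 9 cells at E11.5. There 3 UMIs make 13.4 CPM, and the interval of a gene with no UMI reaches 16.4 CPM.

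The gate was checked against 6 germ cell markers not used in it. Mael, Dnd1, Dppa5a, Tdrd9, Sycp3 and Stra8 summed to 2009 to 4042 CPM inside the gate and to 14.6 to 67.5 CPM outside it, and 3 of them (Mael, Tdrd9 and Stra8) were at 0 in the 9 germ cells at E11.5. Somatic markers were not absent: the sum of 6 mesenchymal genes was 22.3 to 228 CPM in germ cells against 571 to 2659 in other cells, and of 6 pregranulosa genes 4.45 to 175 against 118 to 1870, both highest among germ cells at E16.5. A list of 3 endothelial genes (Cldn5, Pecam1 and Cdh5) was higher in germ cells than in other cells at E11.5 (57.9 against 22.4 CPM) and E12.5 (57.2 against 32.5 CPM). At E11.5 the germ cell sum was Pecam1 alone, since Cldn5 and Cdh5 had no UMI there, so it does not show endothelial RNA as such. The list as a whole is therefore a poor somatic marker in germ cells of that age. The sum of the list was lower in germ cells than in other cells at all ages after E12.5. The E16.5 library also stood apart by its cell barcodes. It had 0 to 3 barcodes in common with each other library, 9 in all, whereas the 15 pairs of other libraries had 22 to 136 in common (median 59). The labels name the same v2 chemistry for all 7, and whether the E16.5 library was made with another set of barcodes was not tested. Between E14.5 and E16.5, 19.2% of genes differed by at least 2-fold in non-germ cells, against 5.62% between E14.5 and E18.5. Most of the 10 genes were highest at E16.5, so the age and this library cannot be told apart there, and results are also given from E14.5 straight to E18.5.

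Of the break-formation genes, Spo11 (ENSMUSG00000005883; GRCm38 chromosome 2, 172977700 to 172993576) encodes the enzyme that makes the cut. Its level in germ cells was 0, 2.97, 11.53, 116, 79.7, 10.5 and 1.16 CPM from E11.5 to P5. It was highest at E16.5 (interval 112 to 120), and E18.5 was still at 68.6% of that level, the largest share that any of the 9 genes highest at E16.5 kept at E18.5. The ratio of E18.5 to E16.5 was 0.686 (0.619 to 0.758). The larger drop came afterwards, with the P1 level at 0.132 of the E18.5 level (0.100 to 0.172). At P5 only 4 UMIs were counted over 62 cells.

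Mei1 (ENSMUSG00000068117; chromosome 15, 82069996 to 82126814), which is needed for breaks to form, had another time course. Its germ cell levels were 0, 0, 6.23, 36.0, 22.7, 20.7 and 38.1 CPM. No Mei1 UMI was found among 7418571 at E12.5, with an interval up to 0.497 CPM. The level was high at E16.5 and again at P5, and these values (33.7 to 38.4 and 31.8 to 45.2 CPM) did not differ beyond counting error. At P5, 38 of the 62 germ cells also held 3 or more UMIs of a mesenchymal, pregranulosa, endothelial or immune marker list. Without them, 24 cells remained with Mei1 at 36.2 CPM (24.8 to 51.2), and the highest age was then E16.5, at 38.6 CPM. The 24 cells had a median of 25150.5 UMIs, against 60954 in all 62. A fixed count of 3 UMIs is reached more easily in deep cells, so this filter cannot separate doublets from large cells. No other of the 10 genes was near its highest level at P5, where Msh4 was the next, at 21.5%.

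Ankrd31 (ENSMUSG00000109561; chromosome 13, 96748272 to 96910039) encodes a partner of the break-promoting protein REC114. It was at 0, 0.944, 11.9, 327, 93.3, 44.8 and 13.4 CPM. The step from E14.5 to E16.5 was 27.5-fold (25.0 to 30.4), the largest of the 10 genes at that step. From E16.5 on, each later level was lower than the one before, to 28.6%, 13.7% and 4.09% of the highest.

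Among the strand-exchange genes, Dmc1 (ENSMUSG00000022429; chromosome 15, 79561497 to 79605109) encodes the meiotic recombinase. Its levels were 4.45, 8.76, 51.1, 129, 28.1, 8.39 and 4.36 CPM. Dmc1 was early: E14.5 already had 39.6% of the highest level, whereas the other 8 genes highest at E16.5 had 3.64 to 17.6% there. It was also the gene that was lower at E18.5 than at E14.5, with a ratio of 0.551 (0.464 to 0.649). The value at E11.5 rests on 1 UMI.

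Meiob (ENSMUSG00000024155; chromosome 17, 24804289 to 24839788), whose product binds single-stranded DNA, was at 0, 0.270, 11.503, 140, 64.1, 14.48 and 4.07 CPM. Rad51ap2 (ENSMUSG00000086022; chromosome 12, 11456079 to 11462928) was at 0, 0.539, 9.80, 211, 20.0, 3.78 and 6.39 CPM. Both were close to absent at E12.5 (2 and 4 UMIs) and were 12.2-fold (11.02 to 13.53) and 21.5-fold (19.3 to 24.0) higher at E16.5 than at E14.5. They parted afterwards. At E18.5 Meiob kept 45.7% of its E16.5 level and Rad51ap2 9.47%, the smallest share of the 10 genes.

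Of the crossover genes, Hfm1 (ENSMUSG00000043410; chromosome 5, 106840192 to 106926321) encodes a DNA helicase needed for crossovers. It was at 0, 5.12, 29.8, 326, 74.6, 21.1 and 5.52 CPM. The level at E16.5 was 10.95-fold (10.28 to 11.68) that at E14.5, and E18.5 kept 22.9% of it. Msh4 (ENSMUSG00000005493; chromosome 3, 153857149 to 153906138) and Msh5 (ENSMUSG00000007035; chromosome 17, 35028605 to 35046745) encode the partners of 1 complex.

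Msh4 was at 0, 1.75, 5.88, 44.6, 25.4, 4.61 and 9.59 CPM in germ cells. Msh5 was at 4.45, 2.70, 14.1, 80.2, 17.1, 7.08 and 6.39 CPM. Both were highest at E16.5, but E18.5 kept 57.0% of the Msh4 level and 21.3% of the Msh5 level. From E14.5 directly to E18.5, Msh4 was 4.33-fold higher (3.47 to 5.38), while the Msh5 ratio of 1.21 (0.962 to 1.51) was within counting error of no change.

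Mlh3 (ENSMUSG00000021245; chromosome 12, 85234520 to 85270599) encodes a subunit of the nuclease that resolves crossover intermediates and also serves DNA mismatch repair outside meiosis. In germ cells it was at 0, 9.30, 6.09, 76.2, 30.3, 32.4 and 12.2 CPM. It was the only gene of the 10 that was lower at E14.5 than at E12.5, with a ratio of 0.655 (0.498 to 0.872). E18.5 and P1 did not differ beyond counting error (ratio 1.07, 0.866 to 1.32). Mlh3 was also present outside the germ cells, at 4.83, 12.8, 7.55, 31.9, 8.51, 8.37 and 13.8 CPM, so its high value at E16.5 was seen in both groups of cells. Without the 327 of 1016 germ cells at E16.5 that held 3 or more UMIs of a somatic marker list, Mlh3 was at 72.1 CPM, lower than with them, and the other 9 genes were higher than with them.

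**Figure D1:**
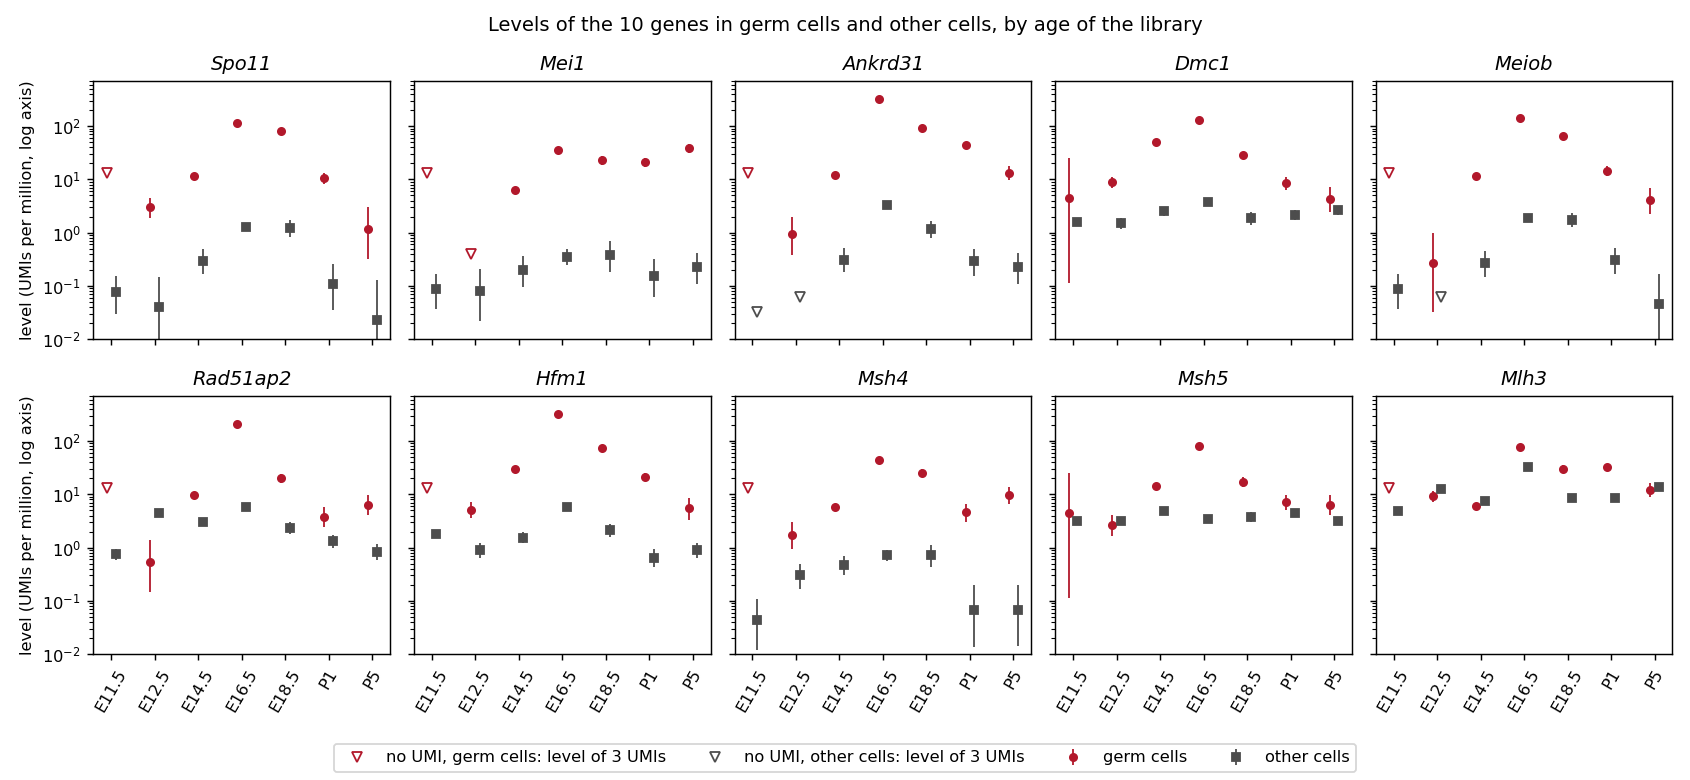
Level of each gene (CPM, log axis) in germ cells (red circles) and all other cells (grey squares) of the 7 libraries, with exact 95% Poisson intervals; open triangles mark groups with no UMI, drawn at the level of 3 UMIs. Germ cells at E16.5 are the highest point in 9 of 10 panels, and in the Mlh3 panel the grey squares lie near or above the red circles at E12.5, E14.5 and P5 and below them from E16.5 to P1.

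**Figure D2:**
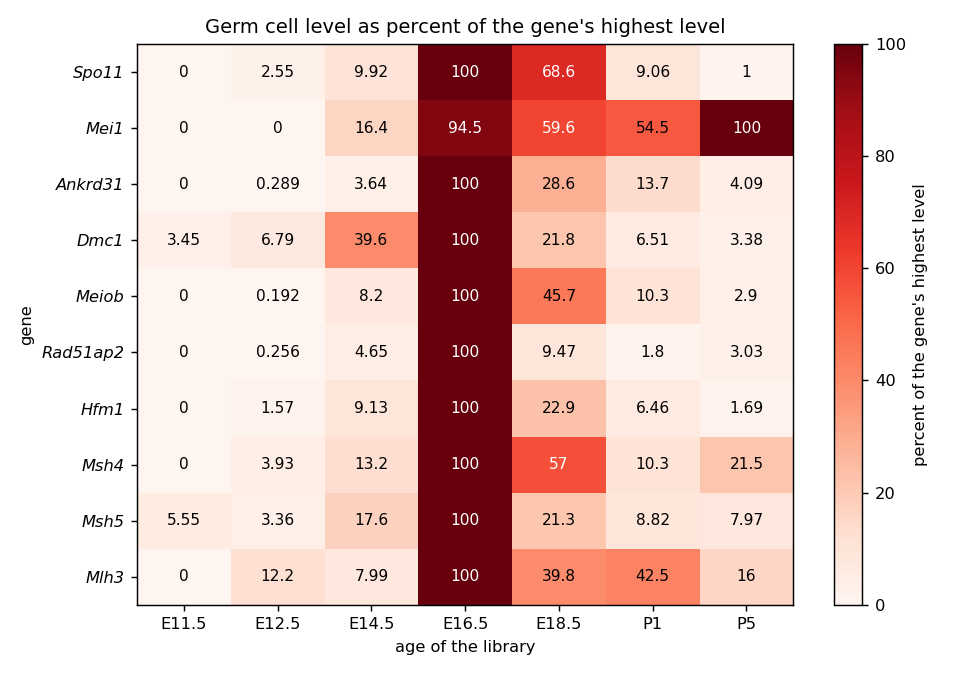
Germ cell level of each gene at each age as a percent of its own highest level (colour and printed value); E11.5 rests on 9 cells. Dmc1 stands out at E14.5 (39.6%), Spo11, Mei1 and Msh4 at E18.5 (57.0% or more) and Mei1 at P5 (100%).

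Counted by a fold of at least 4 over other cells, with 1 CPM added to both levels, the germ cells stood out from E14.5 on. At E11.5 and E12.5 none of the 10 genes passed, where 3.25% and 3.31% of all genes with at least 20 UMIs did. Of the 10 genes, 5 at E11.5, 7 at E12.5, 8 at P5 and all 10 at the ages between had that many UMIs over both groups. At E14.5, 7 genes passed, all but Rad51ap2, Msh5 and Mlh3 (background 4.02%), and at E16.5 9 passed, all but Mlh3 (7.16%). The count was 8 at E18.5 (7.47%), where Msh5 also missed it, 6 at P1 (8.84%) and 5 at P5 (9.84%). The 5 at P5 were Mei1, Ankrd31, Meiob, Rad51ap2 and Msh4. Of these, Rad51ap2 lay near the rule, at 4.02-fold on 22 germ cell UMIs. It missed the rule under some alternative settings, among them a gate of 10 UMIs, and passed it under others. The median fold of the 10 genes was 7.87 at E14.5, 29.4 at E16.5 and 16.3 at E18.5, beside 0.859, 0.911 and 0.936 for all genes.

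The ratio of germ to other cells, with nothing added, differed between the genes. It also depends on any germ cell RNA found outside the gate, which was not separated. At E16.5 Mei1 (102, 72.7 to 147), Ankrd31 (100.3, 89.7 to 112) and Spo11 (91.4, 76.5 to 110.1), the 3 break-formation genes, had the highest ratios. Meiob had a ratio of 73.2 (63.2 to 85.2), Msh4 62.3 (49.0 to 80.3) and Hfm1 55.4 (51.0 to 60.4). Those of Rad51ap2 (36.7, 33.6 to 40.0), Dmc1 (34.1, 30.6 to 38.0) and Msh5 (23.0, 20.5 to 25.8) were lower, and that of Mlh3 was 2.39 (2.25 to 2.53). At E14.5 Meiob had the highest ratio (42.0, 24.8 to 77.5), on 14 UMIs in other cells. Its interval overlapped those of Spo11 (39.3, 23.6 to 70.9), Ankrd31 (38.0, 23.1 to 67.1) and Mei1 (31.9, 17.0 to 67.4). The order of these 4 genes at E14.5 was therefore within counting error. The level in other cells over the 7 libraries ran from 0.0227 to 1.27 CPM for Spo11, from 0.0813 to 0.378 for Mei1 and from 0.0431 to 0.718 for Msh4, and UMIs of all 3 were found there at every age. It ran from 1.504 to 3.784 CPM for Dmc1, from 0.754 to 5.75 for Rad51ap2 and from 3.13 to 4.93 for Msh5, whose highest library was not E16.5 but E14.5. At P5 Mei1 still had a ratio of 168 (88.3 to 358), whereas Dmc1 (1.65, 0.897 to 2.84) and Mlh3 (0.884, 0.630 to 1.21) did not differ from other cells beyond counting error.

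For Mlh3 the ratio itself changed with age. It was 0.727 at E12.5 (0.558 to 0.933) and 0.808 at E14.5 (0.681 to 0.955), so that germ cells were below other cells, and then 2.39 at E16.5, 3.56 at E18.5 (2.90 to 4.37) and 3.87 at P1 (3.24 to 4.61). The ratios at E18.5 and P1 did not differ beyond counting error, and both were above that at E16.5.

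At E12.5 some of the genes were already higher in germ cells than in other cells, at low levels. Spo11 was 73.0-fold higher (17.9 to 640), resting on 22 germ cell UMIs against 2, Dmc1 5.83-fold (4.11 to 8.24), Hfm1 5.73-fold (3.61 to 9.05) and Msh4 5.75-fold (2.52 to 12.95). Ankrd31 and Meiob had no UMI in other cells and 7 and 2 in germ cells. Rad51ap2 went the other way. It was at 4.51 CPM (3.94 to 5.15) in other cells of E12.5 against 0.539 (0.147 to 1.38) in germ cells, and at 6.31 CPM (5.31 to 7.44) in cells with 3 or more UMIs of the mesenchymal genes Pdgfra, Nr2f2 and Tcf21 and none of Dazl or Ddx4. That last level was 11.7-fold (4.47 to 43.5) the germ cell level. From E11.5 to P5, Rad51ap2 in the mesenchymal cells was at 0.849, 6.31, 4.55, 3.84, 2.12, 1.72 and 1.15 CPM (0.614 to 1.97 at P5), so E12.5 was highest.

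Between successive ages from E12.5 to E16.5, the germ cell levels of all the genes but Mlh3 rose at each step. By the 2-fold rule, 9 of 10 genes were higher at E14.5 than at E12.5, all but Mlh3, where 12.7% of all genes were. All 10 were higher at E16.5 than at E14.5, with ratios of 2.52 (Dmc1) to 27.5 (Ankrd31), where 30.6% of all genes were. With 1 CPM added, the median fold over the 10 genes was 9.99 and over all genes 1.39. Going from E14.5 directly to E18.5, without the E16.5 library, 7 genes were higher (20.4% of all genes), which left out Dmc1, Rad51ap2 and Msh5. Ankrd31 was 7.85-fold (6.89 to 8.94) and Spo11 6.91-fold (6.03 to 7.92) higher, Meiob 5.57-fold (4.82 to 6.43), Mlh3 4.97-fold (4.05 to 6.11), Mei1 3.64-fold (2.90 to 4.55) and Hfm1 2.51-fold (2.23 to 2.81). Rad51ap2 had a ratio of 2.04 (1.63 to 2.53), which was under 2 once 1 CPM was added.

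After E16.5 the genes parted in time. At E18.5, 7 of 10 were at least 2-fold lower than at E16.5, against 14.2% of all genes; Spo11, Mei1 and Msh4 were not. In UMIs per germ cell, however, all 10 were at least 2-fold lower at E18.5, Spo11 at 1.00 against 2.89, Mei1 at 0.285 against 0.896 and Msh4 at 0.319 against 1.11, where the median germ cell had 12107 UMIs against 25098. A gene of unchanged CPM also has fewer UMIs per cell in shallower cells, so this count follows depth. The share of all genes past 2-fold by this measure was not computed. At P1, 8 of 10 were lower than at E18.5, against 13.1% of all genes, and Mei1 and Mlh3 were the exceptions. From P1 to P5, Spo11, Ankrd31, Meiob, Hfm1 and Mlh3 were lower (5 genes, background 8.85%) and no gene was 2-fold higher (background 11.7%). Msh4 was 2.08-fold higher at P5 (1.22 to 3.58), on 33 UMIs against 28, and fell short of the rule once 1 CPM was added. The number of UMIs per germ cell gave another picture at P5, since its germ cells had a median of 60954 UMIs against 20902 at P1: Mei1 had 2.11 UMIs per cell against 0.516 and Msh4 0.532 against 0.115, differences that are larger than those in CPM.

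Part of the change around E16.5 was also seen in cells with no Dazl or Ddx4 UMI. In these cells the ratio of E16.5 to E14.5 was 4.04 (3.61 to 4.54) for Mlh3, 7.64 (4.27 to 15.05) for Ankrd31, 6.29 (3.20 to 14.1) for Meiob and 3.34 (2.53 to 4.47) for Hfm1. It was also above 1 for Spo11 (3.49, 1.85 to 7.27), Rad51ap2 (1.79, 1.47 to 2.20) and Dmc1 (1.51, 1.20 to 1.92). It was within counting error of 1 for Mei1 and Msh4. It was below 1 for Msh5, at 0.697 (0.584 to 0.835), which in germ cells was 5.70-fold higher (5.17 to 6.29). The germ cell change was then divided by the change in these cells, with 1 CPM added to all levels. By this measure 9 of 10 genes were still 2-fold higher in germ cells at E16.5 (17.2% of all genes), Dmc1 being the exception. The added CPM weighs on such low levels, and it takes the Meiob change in these cells from 6.29 to 1.90. With nothing added, Meiob (12.2-fold in germ cells) would fall short of 2-fold. From E16.5 to E18.5, 3 genes (Dmc1, Rad51ap2 and Msh5) were by the same measure 2-fold lower (7.09% of all genes). With nothing added Msh4 would join them, at a ratio of 0.570 in germ cells and 1.27 in the cells without gate UMIs. Mlh3 changed direction, since its level outside the germ cells had a ratio of 0.276 (0.239 to 0.319) beside 0.398 (0.337 to 0.466) in them. With nothing added Ankrd31 would do so too, at 0.244 (0.124 to 0.436) outside the germ cells and 0.286 (0.261 to 0.312) in them. These 2 intervals overlapped, and the first rests on 12 UMIs at E18.5.

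**Figure D3:**
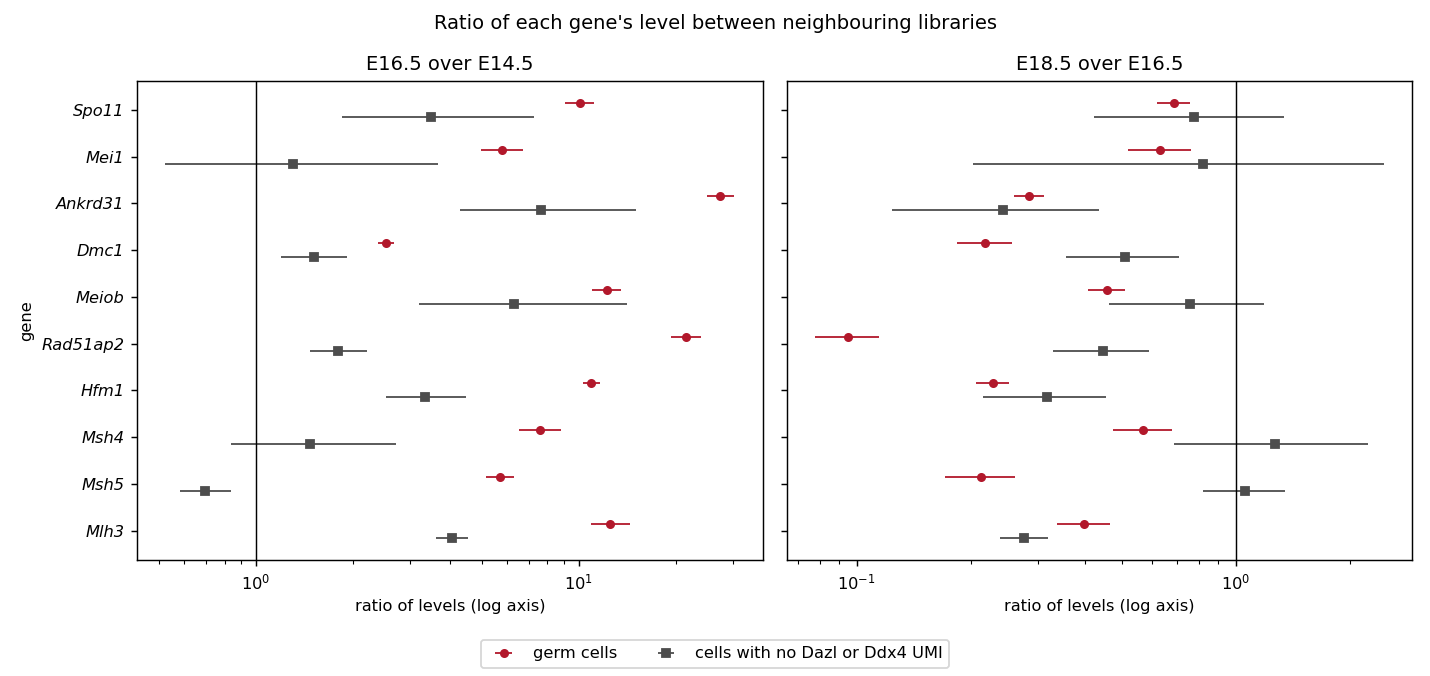
Ratio of each gene's level between neighbouring libraries (log axis) in germ cells (red) and in cells with no Dazl or Ddx4 UMI (grey), with exact 95% intervals; the vertical line marks no change. At E16.5 over E14.5 the 2 intervals are apart for 9 genes and overlap for Meiob; at E18.5 over E16.5 they are apart for Dmc1, Rad51ap2, Msh4, Msh5 and Mlh3, and of these 5 Mlh3 is the one whose grey point lies lower.

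The level outside the gate differed between the genes. At E16.5, cells with 1 or 2 Dazl or Ddx4 UMIs (980 cells) had 9 of the genes at a narrow 5.01 to 6.99% of their germ cell level, and Mlh3 at 49.8%. In the 2735 mesenchymal cells of that library the spread was wider. Ankrd31, Spo11, Mei1, Meiob, Hfm1 and Msh4 were at 0.355 to 0.887% of the germ cell level, Rad51ap2 at 1.82%, Dmc1 at 3.75%, Msh5 at 3.87% and Mlh3 at 39.4%. Whether UMIs outside the germ cells are free RNA or the cells' own transcripts was not tested.

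The germ cells of E14.5 were not at 1 stage, and the genes were compared within them. Cells with at least 2000 UMIs were divided at 5 Stra8 and 6 Sycp3 UMIs per 10000, genes that come on with meiotic entry and with chromosome axis formation. Of 2592 cells, 557 were low in both, 1235 high in Stra8 only and 752 high in both, with median depths of 17039, 13577 and 11066 UMIs, and 369 (14.2%) lay near a dividing value. These are ranges of 2 measured levels, not cell types, and 48 cells high in Sycp3 only are left aside.

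Through the 3 ranges Rad51ap2 was at 0.807, 2.32 and 32.5 CPM, a 40.3-fold difference between the ends (20.1 to 94.2). Mei1 was at 0.605, 2.49 and 20.3 CPM (33.5-fold, 15.1 to 92.7), Meiob at 1.31, 4.70 and 33.9 (25.9-fold, 14.9 to 49.2) and Ankrd31 at 1.31, 6.96 and 32.4 (24.7-fold, 14.2 to 47.0). These 4 genes had 6 to 13 UMIs each in the range low in both, and the greater part of the difference for Mei1, Meiob and Rad51ap2 lay at the last step.

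Dmc1, in contrast, was already at 19.5 CPM (16.8 to 22.4) in the range low in both, then at 39.7 and 109 CPM. Hfm1 was at 10.3, 22.6 and 65.2 CPM, Spo11 at 4.34, 8.83 and 24.1 CPM, and Msh4 at 2.62, 4.87 and 11.2 CPM, with ratios between the ends of 4.28 to 6.34 for these 4 genes. Msh5 did not differ beyond counting error over the first step (4.64 and 6.22 CPM, ratio 1.34, 0.943 to 1.94) and was 6.33-fold higher (5.09 to 7.93) over the next, at 39.4 CPM. Mlh3 did not change beyond counting error, at 5.44, 6.39 and 6.09 CPM.

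By the 2-fold rule 9 of 10 genes were higher in the range high in both than in the range low in both, against 13.2% of all genes, 4 over the first step (Mei1, Ankrd31, Meiob and Hfm1; 2.36%) and 9 over the next (5.16%). Dmc1 in the range high in both was close to its level at E16.5, which was 1.18-fold higher (1.09 to 1.27), and Mei1 was 1.77-fold higher (1.504 to 2.101) at E16.5. The other 8 genes were 2-fold or more higher at E16.5 than in that range (31.5% of all genes), from 2.04-fold for Msh5 to 12.52-fold (9.48 to 16.9) for Mlh3. In the 48 cells high in Sycp3 only, Dmc1 was at 119 CPM (86.4 to 161) and Meiob at 108 (77.0 to 148). Msh5 was there at 75.0 CPM (49.4 to 109) and Mei1 at 16.7 (6.12 to 36.3), the latter on 6 UMIs. These intervals reach the E16.5 levels of the genes, and those of the other genes end below them.

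**Figure D4:**
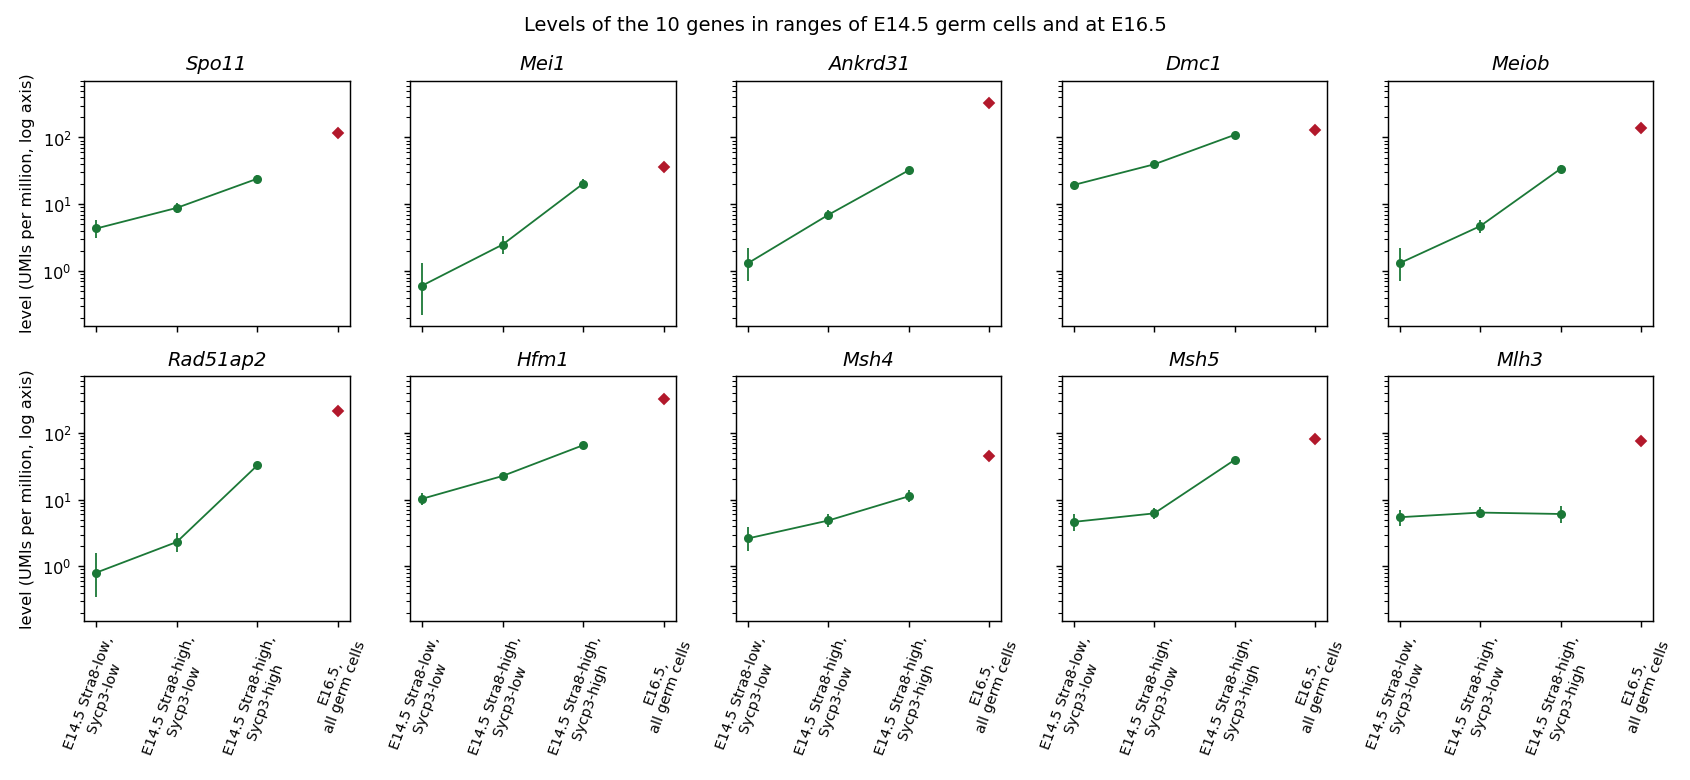
Level of each gene (CPM, log axis) in 3 ranges of E14.5 germ cells ordered by Stra8 and Sycp3 (green circles) and in all germ cells at E16.5 (red diamonds), with exact 95% Poisson intervals. Among the 3 ranges drawn, Dmc1 is close to its E16.5 level in the range high in both. Mlh3 is flat across the ranges (5.44 to 6.39 CPM) and higher at E16.5 (76.2 CPM).

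Because most genes moved with Stra8 and Sycp3, RefSeq promoter windows (GRCm38.p6, 250 bases before to 50 after the start) of 8 of the 10 genes were searched on both strands for 4 motifs. These were CNCCTCAG, reported for the meiotic entry factor STRA8, the E-box CACGTG, GCATGCGC of NRF1, and TTTCCCGC or TTTGGCGC of E2F factors. CNCCTCAG was in the windows of Hfm1 and Msh5 (7.97% of 27025 promoters hold it), GCATGCGC in those of Hfm1 and Mlh3 (2.80%), the E2F letters in those of Dmc1 and Msh5 (1.63%), and CACGTG in none of the 8 (7.24%). Windows of Spo11 and Meiob were not analysed here. The windows of Mei1, Msh4 and Hfm1 lie wholly inside the genes as GENCODE annotates them, so sequence around their GENCODE starts was not searched. For Mei1 the window begins at 82082226 and the GENCODE gene at 82069996. A match is a description of the letters and not a binding site. Rad51ap2, Mei1, Ankrd31, Dmc1 and Msh4 were also higher in the range high in both, and their windows held no CNCCTCAG. The GC share of the window was 75.3% for Hfm1, 67.3% for Msh5 and 51.7% for Mlh3, beside a median of 52.7% over all promoters. The motif shares were not adjusted for it. The stretches of Hfm1 and Msh5, whose levels differed across the ranges, and of Mlh3, which was flat, are shown 5′ to 3′ on the strand of the gene, the minus strand in all 3, with matches in capitals; in Hfm1 the 2 GCATGCGC matches overlap.
Hfm1, chr5:106925876-106925976: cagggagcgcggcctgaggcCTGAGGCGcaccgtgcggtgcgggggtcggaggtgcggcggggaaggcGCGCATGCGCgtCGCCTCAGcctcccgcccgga
Msh5, chr17:35046660-35046724: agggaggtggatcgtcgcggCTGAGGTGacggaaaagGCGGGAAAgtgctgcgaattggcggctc
Mlh3, chr12:85270585-85270629: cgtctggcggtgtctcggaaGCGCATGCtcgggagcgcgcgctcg
In the Hfm1 stretch CNCCTCAG is met at −66 on the opposite strand and at −6 on the strand of the gene (first base of the match as printed, counted from the RefSeq start, which for Hfm1 and Msh5 lies inside the gene as GENCODE annotates it), and GCATGCGC at −18 and −16. In Msh5 the CNCCTCAG match lies at −82 and TTTCCCGC at −65, both on the opposite strand, and in Mlh3 GCATGCGC lies at −10 on the opposite strand.

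Per cell, the number of the 10 genes with a UMI was compared after every cell had been thinned to 2000 UMIs, which left out 8, 77, 47, 6 and 11 germ cells from E12.5 to P1 and none at the other ages. At E16.5 a germ cell held a median of 2 of the genes and at most 6, and 41.2% of 969 cells held 3 or more (38.1 to 44.3). The share with 3 or more was 1.39% at E14.5 (0.975 to 1.92), 5.08% at E18.5 (3.21 to 7.59) and 0.429% at P1 (0.0109 to 2.37). It was 0 of 313 cells at E12.5 (up to 1.17%), 0 of 62 at P5 (up to 5.78%) and 0 of the mesenchymal cells of every library. Without thinning, 3 or more were found in 92.8% of germ cells at E16.5, in 71.8% at E18.5, in 69.4% at P5 and in 1.06% or fewer of mesenchymal cells.

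For single genes the thinned share of E16.5 germ cells ran from 5.88% for Mei1 (4.49 to 7.55) to 46.7% for Ankrd31 (43.6 to 49.9), or 50.1% and 92.6% unthinned. It was 42.4% for Hfm1, 28.6% for Rad51ap2, 23.0% for Meiob, 20.2% for Dmc1, 19.9% for Spo11, 12.9% for Msh5 and 8.15% for Msh4. In mesenchymal cells of the same library, used as the background, Mei1 was found in 0 of 2711 thinned cells (interval up to 0.136%) and Ankrd31 in 0.295% (0.127 to 0.581). These cells were chosen to have no Dazl or Ddx4 UMI, and cells with 1 or 2 such UMIs had each of the genes at a higher level. This background can therefore be too low for germ cell RNA outside the gate. The median depths before thinning were 25098 UMIs in germ cells and 11326 in mesenchymal cells. Mlh3 was the exception, in 15.3% of thinned germ cells (13.1 to 17.7) and 6.53% of thinned mesenchymal cells (5.63 to 7.53).

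**Figure D5:**
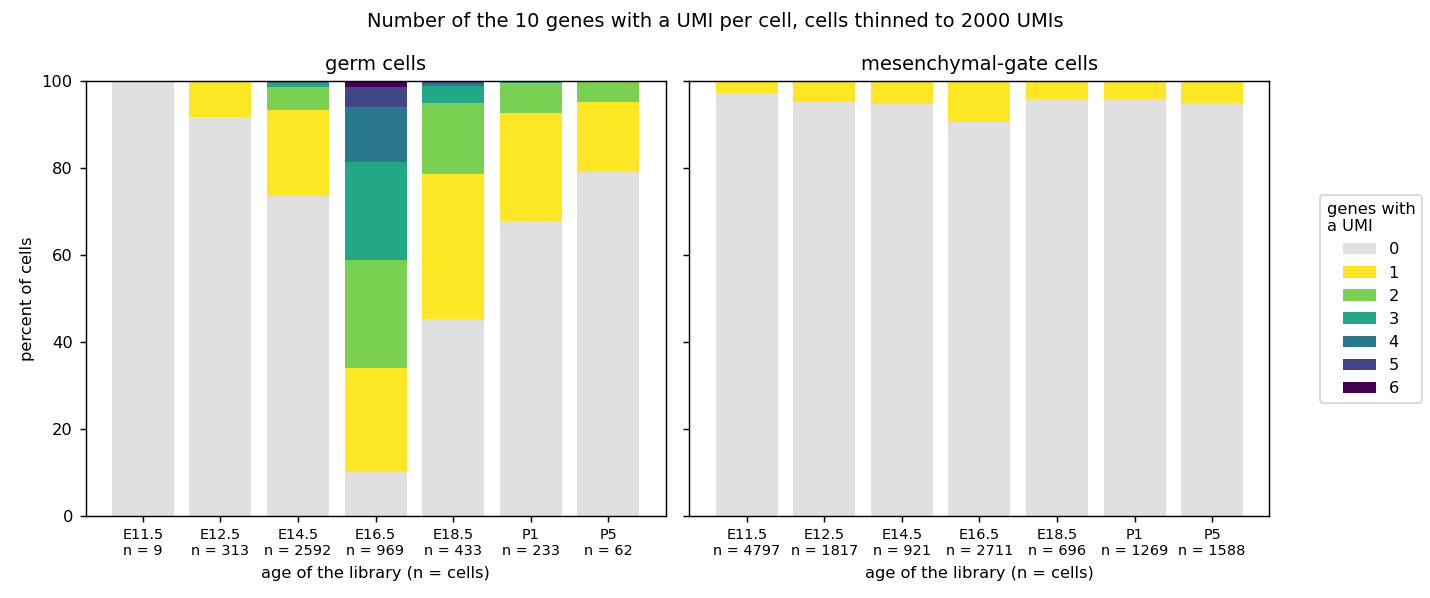
Percent of germ cells (left) and mesenchymal cells (right) of each library with 0 to 6 of the 10 genes detected, after thinning to 2000 UMIs per cell; n is the number of cells. Germ cells at E16.5 are the only bar in which most cells hold 2 or more of the genes, and mesenchymal cells seldom hold more than 1.

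The genes whose germ cell profile was most like each member were sought over 8 groups of germ cells (the 3 ranges of E14.5 and the libraries with at least 50 germ cells), among 10241 genes at 10 CPM or more in at least 1 group, by Pearson's r of log2(CPM + 1). The 8 groups share libraries and depth differences, and these are descriptions. The closest gene was 4930447C04Rik for Spo11 (r = 0.991), Tbc1d9b for Mei1 (0.988), Letm2 for Ankrd31 (0.991), Ugt8a for Dmc1 (0.995) and Atf5 for Meiob (0.993). It was Scmh1 for Rad51ap2 (0.992), Zhx1 for Hfm1 (0.995), 9130023H24Rik for Msh4 (0.991), Pomt2 for Msh5 (0.986) and Zc3h12c for Mlh3 (0.989). No member was among the 3 closest genes of another. The only gene of a list of 43 recombination genes met among them was Zcwpw1, which encodes a reader of histone marks at break hotspots, for Hfm1 (r = 0.995). Within the 10, the most alike were Rad51ap2 and Msh5 (0.976), Ankrd31 and Meiob (0.970) and Spo11 and Hfm1 (0.963), and the least alike Dmc1 and Mlh3 (0.174).

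The list holds 33 genes of the same steps beside the 10. At E16.5 the 4-fold rule (background 7.16%) was passed by 7 of 7 further genes listed under break formation. That group takes in Zcwpw1, the reader of histone marks, and is not limited to genes needed to make breaks. The rule was also passed by 8 of 14 strand-exchange genes and 9 of 12 crossover genes. The highest folds, with 1 CPM added, were 62.3 for Hormad1, which encodes a chromosome axis protein, 53.8 for AI481877 (Shoc1, a crossover factor) and 52.1 for Tex11, also a crossover factor. Their germ cell levels were 520.0, 93.0 and 172 CPM. The lowest were 1.27 for Rpa3 and 0.747 for Rpa1, subunits of the single-strand binding complex of all dividing cells, and 0.559 for Mus81, a nuclease of DNA repair. From E14.5 to E16.5, 5 of 7, 4 of 14 and 9 of 12 of these genes were 2-fold higher (background 30.6%). Rec114, Rpa1, Rpa2 and Rpa3 were 2-fold lower, 4 of the 33 genes where 10.6% of all genes were, a share near the background.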

How the data were processed

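Cells of 7 libraries were captured on the 10x Genomics system, with v2 chemistry per the labels. The authors deposited UMI counts, made with Cell Ranger 3.1.0 on the mm10 reference and neither normalized nor filtered further. Trypsin treatment lasted 20 min at E11.5 and E12.5, 40 min at E14.5 and E16.5, 60 min at E18.5 and 80 min at P1 and P5, so it varied with age.

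Cells with fewer than 200 genes were left out, and 3848 to 11060 cells per library, with 31960736 to 124390521 UMIs, were kept. Their UMIs were summed per group of cells and divided by the group's total. Cells were not treated as replicates, and no test was made. Folds used levels with 1 CPM added. Backgrounds used genes with at least 20 UMIs. Doublets were kept. Thinning drew UMIs without replacement (seed 1). Gene positions came from GENCODE vM21; no exon of the 10 genes overlapped another counted gene. The calculation of intervals and fold rules was tested on simulated Poisson counts. These held no spread between cells or libraries, so the test does not show that the intervals cover such spread. The members, lists, ranges and motifs were chosen with earlier results of these data known. All 10 members were named, with the 3 closest genes of each computed and, of the other recombination genes, the 3 highest and 3 lowest folds at E16.5. A comparison of MSH4 and MSH5 protein sequences was not made. Alternatives varied the gate, depth, haemoglobin, doublet and pseudocount settings. Python 3.11.15, numpy 2.4.6, scipy 1.17.1 and pandas 2.3.3 were used.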

Additional observations from a re-analysis of the deposited data

How the results depend on the processing

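The results were recomputed under 14 planned settings and 2 chosen after seeing the data. Not every setting bears on a count of the 10 genes. Dropping the 20-UMI filter changed only shares of all genes, and thinning to 5000 UMIs only shares of cells. Of 171 recomputed counts, 157 stayed within 1.5 times the reported count. These include counts of 0 that stayed 0, and the rule also lets a count go from 10 to 7. Shares of all genes under the other settings are not given here, so these counts are not read as results about the 10 genes. With a gate of 3 Dazl or Ddx4 UMIs per 10000, or without germ cells holding somatic marker UMIs, 2 genes (Spo11 and Dmc1) instead of 0 passed the 4-fold rule at E12.5. With 5 CPM added, 2 genes instead of 7 passed it at E14.5, 3 instead of 6 at P1 and 1 instead of 5 at P5, by the construction of the fold for low levels. Counted as UMIs per germ cell, 1 gene (Mlh3) instead of 0 was lower at E14.5 than at E12.5, 1 (Mlh3) instead of 0 was higher and 4 instead of 8 lower from E18.5 to P1, and 4 instead of 0 were higher and 1 instead of 5 lower from P1 to P5. Counts by this measure also depend on germ cell depth, with a median of 60954 UMIs at P5 against 20902 at P1. No share of all genes was computed for them. Msh4 (1 gene instead of 0) was 2-fold higher at P5 with the gate per 10000 and with the mean of per-cell fractions. Relative to cells with no Dazl or Ddx4 UMI, 3 genes instead of 7 were lower from E16.5 to E18.5, and the log2 change of Mlh3 went from −1.30 to 0.44. With ranges divided at 8 Stra8 and 9 Sycp3 UMIs per 10000, 7 genes instead of 4 were higher over the first step, and no share of all genes was computed at these cuts. The cause of these shifts, other than the added CPM, was not tested. No paired analysis was possible because each age has 1 library, and no library could be left out of a group. Levels at E11.5 (9 germ cells) and P5 (62) are limited by depth.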
